A study of Mus musculus with 8 samples.

Results

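Pericytes of the small vessels were sought in single-cell RNA data from the first part of the aorta in young mice, and 87 cell barcodes were chosen as candidates. A barcode was taken when it held at least 500 genes, at most 20% of its UMIs (unique molecular identifiers, 1 per captured transcript) from mitochondrial genes and under 5% from alpha- and beta-haemoglobin genes. It further needed at least 3 UMIs in sum of Higd1b, Vtn, Cox4i2, Ndufa4l2 and Steap4 with at least 2 of these genes detected, at least 1 UMI of Notch3, and at most 1 UMI in sum of the endothelial genes Pecam1 and Cdh5. These 87 pericyte-gated barcodes were 0.356% (exact binomial 95% interval 0.285 to 0.439%) of the 24455 barcodes that passed the quality filter, out of 48467 in all. They were set against 20057 muscle-gated barcodes, which failed the pericyte gate and drew at least 1.5% of their gene UMIs from the smooth muscle genes Acta2, Tagln and Myh11. A class of 998 endothelial-gated barcodes, with at least 3 UMIs of Pecam1 and Cdh5, serves as a second comparison level. It was not kept apart from the muscle-gated class. Its barcodes drew 0 to 4.56% of their gene UMIs from the same muscle genes, so some belong to both classes. Its levels are therefore no clean measure of RNA from other cells in a droplet. Since the gate used measured values, the genes in it are described and not tested.

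Pericytes are mural cells that lie within the basement membrane of capillaries and the smallest arterioles and venules. They are recruited by endothelial platelet-derived growth factor through its receptor Pdgfrb, depend on Notch3 signalling, and adjust vessel calibre through contraction and through ATP-sensitive potassium channels. In a large artery such as the aorta they are found along the vasa vasorum, the small vessels that feed the outer wall, while the media is made of smooth muscle.

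The ascending thoracic aorta came from 3 mice, young and wild-type, with no treatment and no other genotype. Cells were marked with 3 hashtag antibodies, read here as 1 animal each, and a reference file deposited with them assigns 11 weeks of age to hashtag 1, 12 to hashtag 2 and 13 to hashtag 3. Enzymatic digestion took 60 min (37 °C; elastase at 1 mg/mL, type II collagenase at 10 mg/mL) and was followed by straining at 70 µm and removal of dead cells, and about 15000 cells per sample were loaded. With 1 animal per age and all animals untreated, the comparison the design allows is between cell classes within the same animals.

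The deposited matrix held 166848700 gene UMIs and 44898085 hashtag UMIs in a single set of barcodes with 0 repeats, although 4 gene expression libraries are listed, so a barcode could not be traced to a library. The pericyte-gated barcodes held 1536 to 15003 UMIs (median 4676; 448967 in sum) and a median of 1948 genes. Median depth was 3570 UMIs in the muscle-gated and 3428 in the endothelial-gated barcodes. Single hashtags were assigned less often in the mural classes: HTODemux gave a single hashtag to 21 of 87 pericyte-gated barcodes (24.1%, exact 95% interval 15.6 to 34.5%), to 13.8% of muscle-gated and to 53.2% of endothelial-gated barcodes. Median UMIs of hashtags 1, 2 and 3 were 86, 265 and 294 in pericyte-gated and 114, 339 and 352 in muscle-gated barcodes. In endothelial-gated barcodes they were 127, 322.5 and 371. Of the muscle-gated barcodes, 9466 were called with several hashtags and 7826 with none. Hashtags 1, 2 and 3 received 7, 3 and 11 members, 18 carried several hashtags and 48 none. A test across animals could use hashtags 1 and 3, with 18 members and 108658 UMIs, because hashtag 2 did not reach the minimum of 5 members. Levels are given below in CPM, a gene's UMIs scaled to a common total of gene UMIs, pooled over all barcodes of a class, or as TMM-scaled CPM per hashtag where a test is reported. Each interval covers counting error alone. The sums of 2 hashtags are too few to give each gene a spread of its own, so the p-values lean on a spread estimated over all genes. A gene that differs between the 2 hashtags can therefore pass, and the p-values say little about other animals.

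The start sites of 4 genes on which the results below turn are shown with the letters TGGGAA in capitals, the core that the Notch effector RBPJ is known to bind, searched on both strands. They are the G-protein regulator Rgs5, the 2 subunits of the vascular ATP-sensitive potassium channel, Kcnj8 (the pore) and Abcc9 (the sulphonylurea receptor), and the olfactory receptor Olfr558. Each window runs from 250 bases before to 50 bases after the RefSeq start (build GRCm38.p6, the assembly of mm10), and is read 5′ to 3′ on the gene's strand: Rgs5 at chr1:169655251-169655550 (plus), Kcnj8 at chr6:142571565-142571864 (minus), Abcc9 at chr6:142702225-142702524 (minus) and Olfr558 at chr7:102702073-102702372 (plus).
Rgs5: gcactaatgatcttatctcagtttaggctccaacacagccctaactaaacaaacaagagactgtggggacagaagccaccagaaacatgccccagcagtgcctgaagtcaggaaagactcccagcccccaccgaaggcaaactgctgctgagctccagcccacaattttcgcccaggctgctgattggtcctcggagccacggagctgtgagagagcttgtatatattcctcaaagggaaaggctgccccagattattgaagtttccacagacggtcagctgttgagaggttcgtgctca
Kcnj8: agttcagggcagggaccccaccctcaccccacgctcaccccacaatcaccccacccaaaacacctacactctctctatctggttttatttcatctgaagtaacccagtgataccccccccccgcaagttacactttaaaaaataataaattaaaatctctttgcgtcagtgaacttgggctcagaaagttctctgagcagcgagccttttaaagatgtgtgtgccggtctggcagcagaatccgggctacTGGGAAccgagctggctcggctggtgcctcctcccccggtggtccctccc
Abcc9: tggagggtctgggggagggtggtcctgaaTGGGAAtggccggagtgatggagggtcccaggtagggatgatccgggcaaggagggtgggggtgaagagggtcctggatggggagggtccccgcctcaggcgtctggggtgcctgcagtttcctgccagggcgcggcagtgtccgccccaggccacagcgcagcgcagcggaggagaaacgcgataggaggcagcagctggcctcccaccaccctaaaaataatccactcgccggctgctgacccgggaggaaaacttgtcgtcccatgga
Olfr558: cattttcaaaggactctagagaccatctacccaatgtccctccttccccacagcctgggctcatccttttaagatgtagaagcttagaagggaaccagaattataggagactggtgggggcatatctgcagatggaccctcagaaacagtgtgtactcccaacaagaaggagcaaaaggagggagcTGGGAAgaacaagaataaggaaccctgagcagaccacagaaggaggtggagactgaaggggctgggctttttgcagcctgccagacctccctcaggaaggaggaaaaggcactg
Kcnj8 and Abcc9 are neighbours on chromosome 6, read from the same strand, and their windows lie 130660 bases apart. The core was present once each in the Kcnj8, Abcc9 and Olfr558 windows and not in the Rgs5 window. Of 22 gate and other genes looked up, 12 matched the RefSeq table (unmatched were Higd1b, Cox4i2, Ndufa4l2, Nrip2, Heyl, Pdgfrb, Agtr1a, Epas1, Ebf2 and Tbx5), and 6 of these 12 held the core in a window. Among all 32851 windows of this length, 25.6% held it, and a match describes letters and not a binding site.

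The gate genes describe how far the 87 barcodes stand from aortic muscle. Ndufa4l2, a paralogue of a respiratory chain subunit, stood at 561 CPM (exact Poisson 95% interval 494 to 635), from 252 UMIs in 83 members, against 4.87 in the muscle-gated class. The Notch receptor Notch3 stood at 690.5 against 15.3. Steap4, a metalloreductase, reached 301 against 5.21, Cox4i2 241 against 5.51, Higd1b 198 against 1.06, and Vtn, the adhesion glycoprotein vitronectin, 172 against 0.545. The 5 summed genes gave between 3 and 24 UMIs per member (median 6), and 35, 20, 22 and 10 members showed 2, 3, 4 and 5 of them. All of these differences follow from the gate. All 87 members held 0 UMIs of Pecam1 and Cdh5, although the gate allowed 1.

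At the edge of the gate, the 12 members with 3 UMIs of the 5 genes had Rgs5 at 1301 CPM and 0 Kcnj8 UMIs. The 26 barcodes just outside, with 2 UMIs, had Rgs5 at 477. The 21 members with 10 or more UMIs had Rgs5 at 8038 and Kcnj8 at 469. Another 7 barcodes had enough UMIs from 1 gene alone, and 7 failed on Pecam1 and Cdh5.

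**Figure D1:**
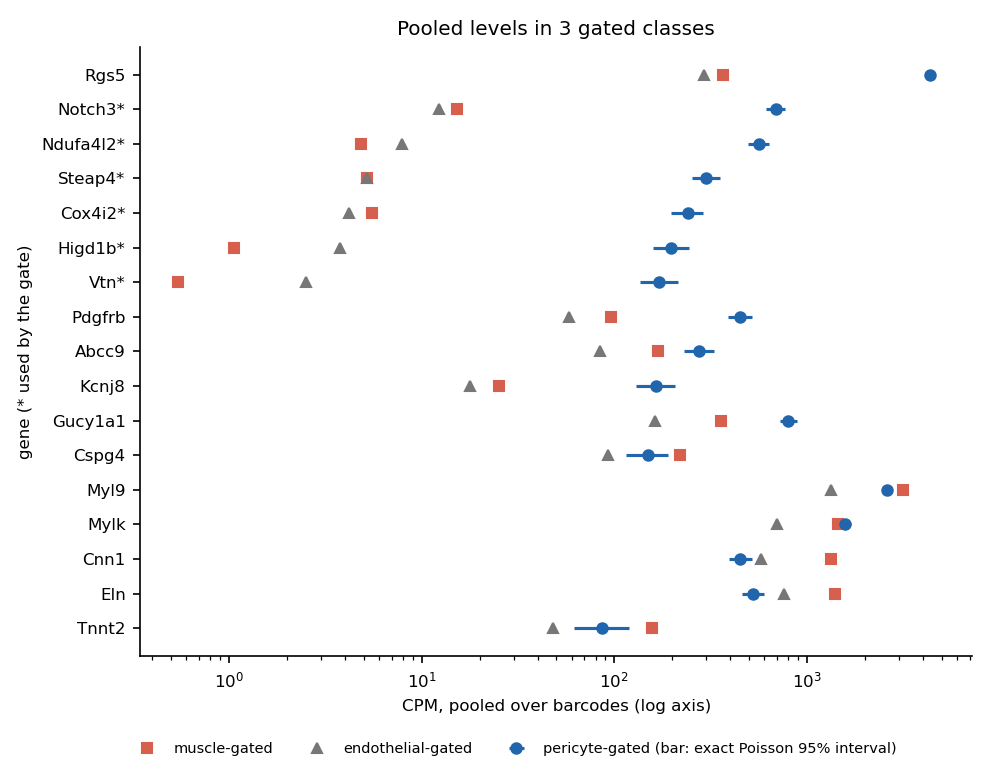
Pooled levels (CPM, log axis) of 17 genes in the pericyte-gated, muscle-gated and endothelial-gated classes; bars are exact Poisson 95% intervals of the pericyte-gated levels, and starred genes were used by the gate. Rgs5 stood at 4381 in the pericyte-gated class against 365 and 294, Mylk stood at 1577 against 1459 in the muscle-gated class, and Cnn1 and Eln lay below the muscle-gated level.

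Pericyte-gated barcodes carried more transcript of several pericyte markers that the gate had not used, and less of several contractile and elastic fibre genes of the aortic media. Across 10433 genes tested by edgeR's quasi-likelihood test with the hashtag as a block, 128 were higher (1.23% of those tested) and 238 lower (2.28%) at an adjusted p under 0.05. Both counts rest on 4 sums of barcodes: in a fit that admitted hashtag 2 with its 3 members, leaving out hashtag 1 gave 55 higher and 34 lower genes, and leaving out hashtag 3 gave 29 and 77. DESeq2 called 97 genes higher (1.35% of 7196 with an adjusted p) and 10 lower (0.139%) on the same sums. For each gene group, the calls that these 3 fits made again are counted; where a hashtag was left out, the 3 members of hashtag 2 make up 1 of the pericyte-gated sums, and genes too low there were not tested. Among the 69 members and 18040 muscle-gated barcodes that did not enter the test, 124 of the 128 higher genes (96.9%) were again higher, while 53.8% of all tested genes were, and 230 of the 238 lower genes (96.6%) were again lower. Those barcodes went through the same gate and come from the same 3 animals.

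Of 20 pericyte markers tested, 7 were higher and 2 lower, with a median log2 fold change of 1.75. The median of all genes tested was -0.44. It was -0.01 once the 1729 genes with 0 UMIs in the tested members were set at 3 UMIs. A median with such genes set at 3 UMIs is an upper bound, here and below. Rgs5, a regulator of G-protein signalling that marks pericytes in many organs, stood at 4601 and 3988 CPM in the pericyte-gated sums of hashtags 1 and 3 and at 423 and 461 in the muscle-gated sums. That is a 9.68-fold difference (log2 fold change 3.28, SE 0.33, adjusted p = 5.32e-20), and the pericyte-gated values lay far above the muscle-gated ones in both animals. Over all members it was found in 76 of 87 barcodes with 0 to 95 UMIs each (median 21). Thinned to 1000 UMIs per barcode, 75.9% of members held Rgs5, against 18.6% of 2000 muscle-gated and 13.8% of endothelial-gated barcodes (unthinned 87.4, 40.3 and 29.6%). The endothelial share can hold free RNA, RNA of neighbouring cells and barcodes that also passed the muscle gate, so it is no clean background.

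Pdgfrb, the receptor through which pericytes are recruited, stood at 454 and 467 in the pericyte-gated sums and 109 and 109 in the muscle-gated sums, 4.24-fold higher (log2 fold change 2.09, SE 0.30, adjusted p = 2.74e-09). Aspn, a small leucine-rich matrix proteoglycan, was at 711 and 627 against 160.0 and 154, 4.25-fold higher (log2 fold change 2.09, SE 0.28, adjusted p = 4.42e-11). The transcription factor Ebf1 was at 652 and 947 against 250.2 and 262, 3.12-fold higher (log2 fold change 1.64, SE 0.27, adjusted p = 3.69e-07). For each of these 3 genes both pericyte-gated levels lay above both muscle-gated ones. This nearly follows from a call made on the same sums and adds no support. Enpep, the aminopeptidase that cleaves angiotensin II, rose from 3.22 and 4.92 to 39.5 and 107 (log2 fold change 4.19, SE 1.09, adjusted p = 0.00608) and Colec11, a soluble collectin, from 12.2 and 10.2 to 39.5 and 160.1 (log2 fold change 3.28, SE 0.90, adjusted p = 0.0115). Pla1a, a phosphatidylserine-specific phospholipase, also passed the test, on few UMIs. It rose from 3.65 and 1.93 to 39.5 and 66.7 (log2 fold change 4.37, SE 1.24, adjusted p = 0.0163). Of the 9 markers called in either direction, 4 were called again without hashtag 1, 2 without hashtag 3 (Rgs5 and Aspn) and 4 by DESeq2, and Rgs5 was called in each. Pdgfrb missed in all 3 fits (adjusted p = 0.167, 0.104 and 0.0958), as did Ebf1 (0.208, 0.165 and 0.345). Aspn missed by DESeq2 (adjusted p = 0.0823), and Colec11 and Enpep without hashtag 3 (adjusted p = 0.598 and 0.739).

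Other markers of pericytes did not pass. Kcnj8 stood at 138 and 66.7 against 27 and 26.4 (log2 fold change 1.85, SE 0.73, adjusted p = 0.183) and Abcc9 at 217 and 280.1 against 192 and 204 (0.34, SE 0.34, adjusted p = 0.888). Abcc9 is thus also abundant in the muscle-gated class, whose pooled level was 168 CPM against 276 in members. The related channel genes Kcnj11 and Abcc8 had 0 UMIs in all members, which allows up to 6.68 CPM, the worth of 3 UMIs. Gucy1a1, a subunit of the nitric oxide receptor, had levels of 612 and 493 against 451 and 444 (adjusted p = 0.888), and the Notch target Heyl 138 and 173 against 154 and 155 (adjusted p = 0.998). The proteoglycan Cspg4, also called NG2 and widely used to mark pericytes, was lower, at 118 and 93.4 against 269 and 256 (log2 fold change -1.33, SE 0.41, adjusted p = 0.0341), and so was Lhfp, at 138 and 347 against 606 and 610.2 (adjusted p = 0.00433). Cspg4 did not pass without hashtag 1, without hashtag 3 or by DESeq2 (adjusted p = 0.333, 0.247 and 1), nor without the 7 members with fibroblast transcripts (adjusted p = 0.0573), and Lhfp missed in the first 3 of these fits (adjusted p = 0.931, 0.22 and 1). The marker list was partly chosen on earlier results of these data, so its count of 7 higher, 2 lower and 11 not passing is no independent evidence for the label, and the class is called pericyte-gated throughout.

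**Figure D2:**
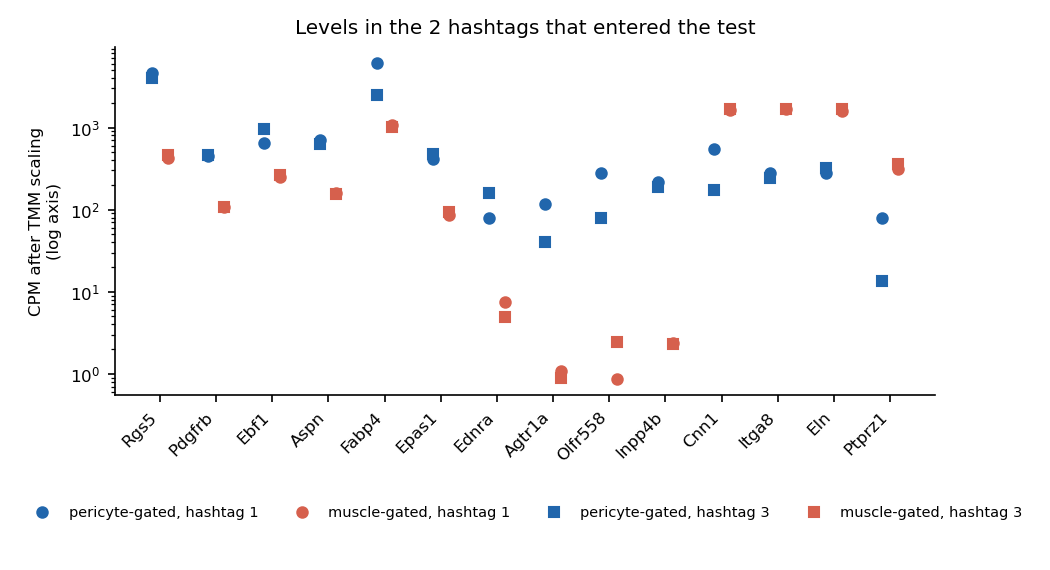
TMM-scaled levels (CPM, log axis) of 14 genes in the 2 pericyte-gated sums (blue) and 2 muscle-gated sums (red) that entered the test, hashtag 1 as circles and hashtag 3 as squares. From Rgs5 to Inpp4b both pericyte-gated values lie above both muscle-gated values, and from Cnn1 to Ptprz1 both lie below. All 14 genes were called on these same sums.

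A different caller of hashtags, built on the ratio of each hashtag to its background composition, assigned 6, 8 and 17 members to hashtags 1, 2 and 3 and allowed a test over all 3 animals. It called 216 genes higher (2.09% of 10334) and 259 lower (2.51%). Kcnj8 and Abcc9 did not pass there either (adjusted p = 0.557 and 0.91). Markers and channels that passed with this caller and missed in the main test were Kcnk3, a pH-sensitive potassium channel (log2 fold change 4.39, adjusted p = 1.61e-11), Rgs4 (1.38, 0.00401), and the transcription factors Tbx2 (3.39, 9.25e-06) and Foxs1 (2.60, 0.00293). This caller also changed which members were assigned, so the gain was not traced to the third animal. Rgs4 missed again (log2 fold change 0.47, adjusted p = 0.679) when HTODemux calls were used with hashtag 2 admitted. Casq2, the calcium-binding protein of the sarcoplasmic reticulum, was tested there and not in the main test, and was higher (log2 fold change 7.87, adjusted p = 4.33e-14). Over all members it gave 37 UMIs in 25 barcodes, at 82.4 CPM against 0.448 in muscle-gated barcodes.

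Several receptors were higher in the pericyte-gated sums. Of 14 G-protein-coupled receptors tested, 5 were higher and 1 lower, with a median log2 fold change of 0.10. With the 2 genes at 0 UMIs, P2ry6 and Htr2a, set at 3 UMIs, the median was 1.77. That upper bound comes from these 2 undetected genes. Their muscle-gated levels (9.65 and 11.1, and 9.43 and 8.09 CPM) lie below what 3 UMIs over the tested members are worth. The angiotensin II receptor Agtr1a stood at 118 and 40 CPM in the pericyte-gated sums and at 1.07 and 0.879 in the muscle-gated sums (log2 fold change 6.18, SE 1.16, adjusted p = 1.08e-05). Over all members it gave 31 UMIs in 22 of 87, and only part of these UMIs entered the test. The endothelin receptor Ednra was at 79 and 160.1 against 7.51 and 4.92 (log2 fold change 4.38, SE 0.91, adjusted p = 0.00012). The sphingosine 1-phosphate receptor S1pr3 was at 138 and 147 against 4.5 and 5.1 (log2 fold change 4.87, SE 0.89, adjusted p = 5.44e-06), and the orphan receptor Gprc5c at 79 and 53.4 against 1.93 and 2.46 (adjusted p = 0.00262). In each case the muscle-gated level was a few CPM in both animals. Of the 6 receptor calls, 3 were made again without hashtag 1, 2 without hashtag 3 (S1pr3 and Olfr558) and 5 by DESeq2. Ednra missed without hashtag 3 (adjusted p = 0.776), Gprc5c in both fits that left out a hashtag (adjusted p = 0.145 and 0.096), and Agtr1a was too low to be tested there.

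Olfr558, an olfactory receptor known from vascular mural cells, stood at 276 and 80 in the pericyte-gated sums and 0.858 and 2.46 in the muscle-gated sums (log2 fold change 6.50, SE 0.91, adjusted p = 4.49e-10). It gave 88 UMIs in 34 of 87 members, 196 CPM over all members against 1.09 in muscle-gated and 1.05 in endothelial-gated barcodes. Thinned to 1000 UMIs, 13.8% of members held it, against 0.05% of muscle-gated and 0.1% of endothelial-gated barcodes. A second olfactory receptor, Olfr78, was too low to be tested, with 28 UMIs in 16 members (62.4 CPM against 0.331). Ramp1, the partner subunit of the receptor for calcitonin gene-related peptide, was lower (197 and 227 against 506 and 502, adjusted p = 0.00999), a call not made again in any of the 3 fits (adjusted p = 0.912, 0.286 and 1). The endothelin receptor Ednrb was at 138 and 0 in the pericyte-gated sums and did not pass (adjusted p = 0.139).

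Downstream of these receptors fewer genes differed. Of 10 regulators of G-protein signalling tested, Rgs5 alone passed, with a list median of -0.26. Of 19 genes of cyclic nucleotide signalling, Gucy1a2, an alternative subunit of the nitric oxide receptor, was higher (118 and 66.7 against 5.36 and 5.1, adjusted p = 0.00518), and the adenylyl cyclase Adcy5 was lower (19.7 and 160.1 against 273 and 278, adjusted p = 0.0119). The natriuretic peptide receptor Npr1 had 0 UMIs in the tested members against 70.6 CPM in the muscle-gated sums, at least 2.56-fold lower when set against 3 UMIs over the tested members, and 10 UMIs over all 87. The median of that list was -0.20. Of 12 genes of calcium and chloride handling (median -0.29), 2 were higher: the chloride channel Ano1 (118 and 267 against 60 and 62.4, adjusted p = 0.00321) and phospholamban, Pln, an inhibitor of the sarcoplasmic calcium pump (79 and 267 against 38.2 and 36.2, adjusted p = 0.000561). Without hashtag 3 neither passed (adjusted p = 0.919 and 0.973), and by DESeq2 neither did (adjusted p = 0.604 and 0.273). Without hashtag 1, Pln passed and Ano1 did not (adjusted p = 0.0353 and 0.414). Over all members Pln was unevenly spread. The 17 members with fewer than 2 Rgs5 UMIs, described below, held 55 Pln UMIs, and the other 70 held 14, at 39.9 CPM. Gucy1a2 missed when either hashtag was left out (adjusted p = 0.108 and 0.0596), Npr1 in all 3 fits (adjusted p = 0.167, 0.273 and 0.221), and Adcy5 without hashtag 1 and by DESeq2 (adjusted p = 0.931 and 0.885).

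Among 17 genes of platelet-derived growth factor signalling and mural cell recruitment, 6 passed, all of them higher, with a median of 1.32. Besides Pdgfrb and S1pr3 these were Angpt1, the angiopoietin that pericytes supply to endothelium (118 and 66.7 against 4.93 and 5.45, log2 fold change 4.07, SE 1.05, adjusted p = 0.0052), the chemokine Cxcl12 (395 and 440.1 against 74.2 and 70.5, log2 fold change 2.54, SE 0.32, adjusted p = 4.09e-12), its scavenging receptor Ackr3 (217 and 40 against 12.9 and 13.2, adjusted p = 0.015) and the co-receptor Nrp1 (138 and 333 against 48.5 and 46.1, adjusted p = 2.89e-06). Cxcl12 and Nrp1 were also high in endothelial-gated barcodes, at 577 and 407 CPM. Ackr3 and Nrp1 no longer passed (adjusted p = 0.61 and 0.117) without the 7 members that carried fibroblast transcripts, described below. Of the 6 calls, 3 were made again without hashtag 1, 2 without hashtag 3 (S1pr3 and Cxcl12) and 4 by DESeq2. Angpt1 missed when either hashtag was left out (adjusted p = 0.297 and 0.101), Ackr3 likewise (adjusted p = 0.931 and 0.0651), and Nrp1 without hashtag 3 and by DESeq2 (adjusted p = 0.919 and 0.117).

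The Notch list had 2 of 14 tested genes that passed, both higher, with a median of -0.04. Nrip2, a nuclear receptor interacting protein, stood at 178 and 133 against 1.29 and 1.06 (log2 fold change 6.99, SE 0.95, adjusted p = 8.01e-11), with 80 UMIs in 40 members. Nrarp, a Notch target that feeds back on the pathway, stood at 138 and 80 against 4.07 and 2.29 (log2 fold change 5.08, SE 1.01, adjusted p = 5.16e-05). The muscle-gated sums were near 0 for both genes. Nrip2 was called again in all 3 fits, and Nrarp by DESeq2, being too low to be tested when a hashtag was left out. The targets Heyl, Hes1 and Hey1 did not pass, at 138 and 173 against 154 and 155, 79 and 53.4 against 21.9 and 23.2 and 19.7 and 13.3 against 1.93 and 3.34. Of 21 genes of the TGF-beta and BMP pathways (median -0.45), the ligand Tgfb3 (adjusted p = 0.0448) and the BMP target Id4 (79 and 293 against 41.8 and 41.9, adjusted p = 0.000279) were higher. The receptor Tgfbr1 (adjusted p = 0.0439) and the latent TGF-beta binding protein Ltbp4 (197 and 227 against 592 and 599, adjusted p = 0.000784) were lower. Of these 4 calls, 1 was made again without hashtag 1 (Id4) and none without hashtag 3 or by DESeq2, where the adjusted p of Id4 was 0.919 and 0.324. Ltbp4 had adjusted p = 0.516, 0.111 and 0.914 in the 3 fits.

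Contractile genes were in part lower than in aortic muscle, a comparison that the muscle gate itself favours because it asked for Acta2, Tagln and Myh11. Those 3 genes stood at 8718, 7330.2 and 3194 CPM in members, against 13296, 9587 and 4647 in muscle-gated and 5512, 3877 and 2021 in endothelial-gated barcodes. Of 22 further contractile genes, 10 were lower and 1 higher, with a median of -0.98. Calponin, Cnn1, stood at 553 and 173 against 1633 and 1681, 5-fold lower (log2 fold change -2.32, SE 0.34, adjusted p = 3.09e-09), and the integrin subunit Itga8 at 276 and 240.1 against 1677 and 1681, 6.55-fold lower (log2 fold change -2.71, SE 0.35, adjusted p = 1.13e-11). Smtn, Actg2, Synpo2, Pdlim7, Flna, the smooth muscle co-activator Myocd and the potassium channel subunit Kcnmb1 were also lower, with log2 fold changes of -2.27, -1.81, -1.14, -1.95, -1.18, -1.96 and -2.45. The intermediate filament desmin, Des, went the other way, at 375 and 160.1 against 97.6 and 91.1 (log2 fold change 1.41, SE 0.36, adjusted p = 0.00529). Myosin light chain kinase, Mylk, and the light chain Myl9 did not pass (log2 fold changes -0.57 and -0.92). Of the 11 contractile calls, 2 were made again without hashtag 1 (Itga8 and Kcnmb1), 2 without hashtag 3 (Itga8 and Smtn) and 1 by DESeq2 (Itga8). Cnn1 missed in all 3 fits (adjusted p = 0.0565, 0.0896 and 0.167), as did Des (0.931, 0.218 and 0.782).

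Genes that mark the aortic media were lower in 9 of 17 cases and higher in 1 (Pln), with a median of -2.24 (-1.60 with 3 genes at 0 UMIs set at 3 UMIs). Most Pln UMIs came from the members with few Rgs5 UMIs, as given above. Elastin, Eln, stood at 276 and 320.1 in the pericyte-gated sums against 1593 and 1671 (log2 fold change -2.45, SE 0.34, adjusted p = 4.18e-10), Sost, a Wnt antagonist, at 98.7 and 80 against 825 and 774 (log2 fold change -3.18, SE 0.40, adjusted p = 3.48e-12), and the phosphatase Ptprz1 at 79 and 13.3 against 315 and 358 (log2 fold change -3.07, SE 0.50, adjusted p = 2.03e-07). Fbln5 and Ltbp1, which take part in elastic fibre assembly and TGF-beta storage, were lower with log2 fold changes of -2.24 and -2.27. The remaining lower genes were Tnnt2 (118 and 0 against 199 and 191), Susd5, Sfrp2 and Wif1 (log2 fold changes -1.55, -1.60 and -2.37). The endothelial-gated barcodes held Eln at 760.0 and Sost at 326 CPM, levels above those of the members (526 and 165). Of the 10 medial calls, 6 were made again without hashtag 1, 6 without hashtag 3 and 1 by DESeq2 (Sost). Eln missed without hashtag 1 and by DESeq2 (adjusted p = 0.259 and 0.0845), and Ptprz1 by DESeq2 (adjusted p = 0.161).

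Integrins and matrix followed a mixed pattern. Of 13 integrin genes, 4 passed, all of them lower (Itga5, Itga8, Itga9 and Itgb3; median -1.51, and -0.89 with 3 genes set at 3 UMIs). Of 18 basement membrane genes (median 0.13), 3 were higher: Nid1 (158 and 240.1 against 30.2 and 24.4, adjusted p = 6.32e-06), the laminin subunit Lamb1 (19.7 and 93.4 against 3.22 and 2.46, adjusted p = 0.00755) and the netrin Ntn4 (adjusted p = 0.0469). Another 3 were lower: the collagens Col18a1 (59.2 and 253 against 888 and 862, adjusted p = 5.63e-09) and Col15a1 (59.2 and 40 against 198 and 208, adjusted p = 0.00253), and perlecan, Hspg2 (adjusted p = 0.028). Of 27 genes of the interstitial matrix and elastic fibres (median -0.39), 6 were lower and 2 higher. The lower ones were Eln, Fbln5, Col1a2, Ogn, the microfibrillar Mfap4 (log2 fold change -3.07, SE 0.45, adjusted p = 2.95e-09) and biglycan, Bgn (log2 fold change -1.73, SE 0.33, adjusted p = 1.98e-05), and the higher ones Lum and Col5a3 (59.2 and 66.7 against 2.36 and 1.41, adjusted p = 0.00115). Nid1, Lamb1, Ntn4, Hspg2 and Lum no longer passed without the 7 members that carried fibroblast transcripts. Lamb1, Ntn4 and Hspg2 had log2 fold changes of 4.35, 1.89 and -1.41 there, against 4.46, 2.05 and -1.53 in the main fit. Nid1 moved from 2.92 to 2.12. That fit also held fewer tested members, as given below. Lum was itself among the genes that chose those members. Of the 6 basement membrane calls, 2 were made again without hashtag 1, 1 without hashtag 3 (Col18a1) and 2 by DESeq2 (Nid1 and Lamb1). Of the 8 interstitial calls these counts were 2, 5 and 1, and of the 4 integrin calls 1 each, all of them Itga8. Col18a1 missed without hashtag 1 and by DESeq2 (adjusted p = 0.0843 and 0.118), and Nid1 without hashtag 3 (adjusted p = 0.698). Mfap4 missed by DESeq2 (adjusted p = 0.0845), and Bgn there and without hashtag 1 (adjusted p = 0.531 and 0.429).

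**Figure D3:**
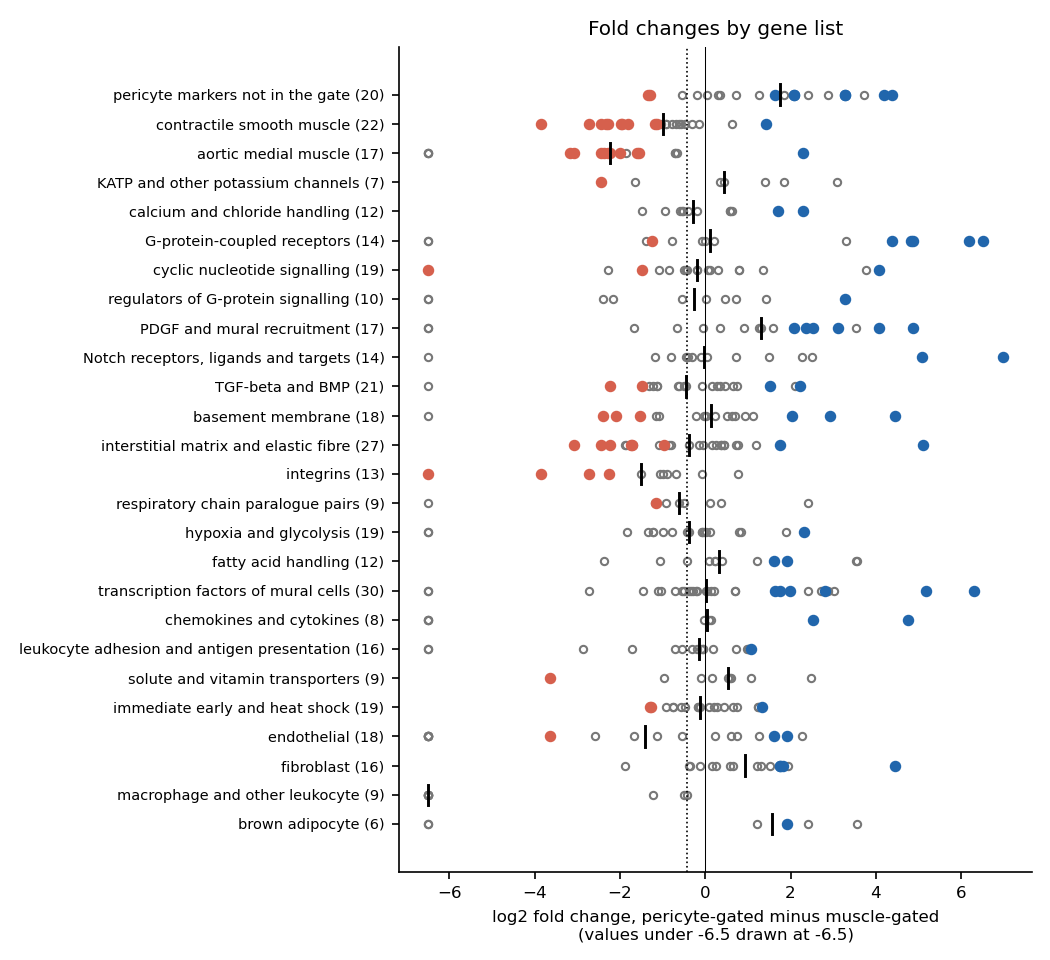
Log2 fold changes (pericyte-gated minus muscle-gated) of every tested gene in each gene list with at least 5 tested genes, the number tested in brackets; filled blue and red points passed as higher and lower, open points did not pass, black bars are list medians and the dotted line is the median of all tested genes (-0.44). Furthest to the right lie the pericyte marker (1.75), brown adipocyte (1.56), recruitment (1.32) and fibroblast (0.94) lists. Furthest to the left lie the leukocyte (-7.21), medial (-2.24), integrin (-1.51), endothelial (-1.40) and contractile (-0.98) lists. Of the leukocyte and endothelial genes tested, 6 of 9 and 6 of 18 had 0 UMIs in the tested members. Values drawn at -6.5 come from such genes.

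The gate chose barcodes on Cox4i2, Ndufa4l2 and Higd1b, paralogues of the common Cox4i1, Ndufa4 and Higd1a, so the paralogue shares are given as a description. Cox4i2 made up 20.7% of the Cox4i1 and Cox4i2 UMIs in members (95% interval 17.3 to 24.4%) and 0.521% in muscle-gated barcodes. Ndufa4l2 made up 59.4% of its pair against 0.823%, and Higd1b 59.7% against 0.412%. Among the genes not in the gate, Ndufa4, for which NDUFA4L2 can substitute in the respiratory chain, was lower at 296 and 320.1 against 683 and 684 (log2 fold change -1.14, SE 0.32, adjusted p = 0.0121), the single call among 9 respiratory paralogues tested (median -0.61). This call was not made again in any of the 3 fits (adjusted p = 0.556, 0.127 and 1). Cox4i1 stood at 922 CPM in members and 1051 in muscle-gated barcodes.

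Epas1, which encodes the oxygen-regulated factor HIF2-alpha, was the single call among 19 hypoxia and glycolysis genes (median -0.38). It stood at 415 and 480.2 against 86.6 and 94.5, 4.95-fold higher (log2 fold change 2.31, SE 0.31, adjusted p = 5.78e-11), and was found in 72 of 87 members. It was called again without hashtag 1, without hashtag 3 and by DESeq2. Endothelial-gated barcodes held 359 CPM against 483 in members. Among the 12 genes of fatty acid handling (median 0.32), 2 passed, and both are also abundant in endothelium. The fatty acid carrier Fabp4 stood at 6141 and 2507 against 1077 and 1007 (log2 fold change 1.92, SE 0.33, adjusted p = 8.44e-07) and the scavenger receptor and fatty acid translocase Cd36 at 375 and 173 against 92.8 and 77.4 (log2 fold change 1.61, SE 0.37, adjusted p = 0.000812). Fabp4 missed without hashtag 1 and by DESeq2 (adjusted p = 0.313 and 0.168), and Cd36 in all 3 fits (adjusted p = 0.931, 0.217 and 0.504).

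Fabp4 was found in all 87 members, at 1 to 111 UMIs each (median 21), and its pooled level of 5421 CPM lay between the 713 of muscle-gated and the 14471 of endothelial-gated barcodes. For the capillary endothelial gene Gpihbp1, members held 0.0822 UMIs per 100 Fabp4 UMIs, against 7.34 in endothelial-gated and 4.44 in muscle-gated barcodes. Of the 20 endothelial genes listed, 18 were detected in members. Kdr and Rgcc, present at 575 and 551 CPM in endothelial-gated barcodes, had 0 UMIs. Besides Fabp4 and Cd36 the highest counts were 42 UMIs of the junction gene Esam (93.5 CPM against 255 in endothelial-gated barcodes), 28 of the co-receptor Eng and 23 of the receptor Flt1. Esam stood at 118 and 53.4 against 18 and 15.5 in the tested sums and did not pass (log2 fold change 2.28, adjusted p = 0.214). The summed level of the list per member ran from 92 to 27404 CPM, with a median of 4992 against 889 in muscle-gated and 27334 in endothelial-gated barcodes. The gate allowed at most 1 UMI of Pecam1 and Cdh5 together and so favoured low levels of genes expressed with them, and the part of endothelial RNA in the Fabp4 and Cd36 levels was not tested. Of the 10 brown adipocyte genes, 9 were detected, but Adipoq, which adipocytes secrete, gave 2 UMIs and Ucp1 3. The 6 of them that were tested had a median log2 fold change of 1.56, and Fabp4 alone passed.

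Of 30 transcription factors tested, 6 passed, all of them higher (median 0.02). Tbx5, a T-box factor of heart and lung, stood at 118 and 53.4 against 0.429 and 1.41 (log2 fold change 6.31, SE 1.12, adjusted p = 2.89e-06), with 47 UMIs in 28 members. Ebf2 stood at 79 and 147 against 3.65 and 2.81 (log2 fold change 5.19, SE 0.97, adjusted p = 9.97e-06), which with Ebf1 makes 2 early B-cell factors. Nr2f2, known from venous endothelium and mural precursors, was at 158 and 400.1 against 73.5 and 71.2 (adjusted p = 5.6e-06), the mesenchymal homeobox gene Prrx1 at 158 and 520.2 against 103 and 102 (adjusted p = 1.22e-05) and Tcf15 at 98.7 and 107 against 13.9 and 15.3 (adjusted p = 0.041). Tcf15 was higher still in endothelial-gated barcodes, at 271 CPM against 93.5 in members. Tbx18, a factor used to trace mural cells, stood at 71.3 against 41.2 and did not pass, and Foxf2 and Foxd1 gave 1 UMI each. Of the 6 factor calls, 2 were made again without hashtag 1 (Tbx5 and Nr2f2), none without hashtag 3 and 3 by DESeq2 (Tbx5, Ebf2 and Tcf15). Without hashtag 3, Tbx5 and Ebf2 were too low to be tested, and Nr2f2, Prrx1 and Tcf15 had adjusted p = 0.341, 0.919 and 0.657.

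Among 8 chemokine and cytokine genes tested, the eosinophil chemoattractant Ccl11 (79 and 307 against 8.15 and 6.86, log2 fold change 4.75, SE 0.76, adjusted p = 9.19e-08) and Cxcl12 were higher. Of 16 genes of leukocyte adhesion and antigen presentation, the interferon-induced Ifitm3 was higher (415 and 1254 against 404 and 367, adjusted p = 0.00725). Of 19 immediate early and heat shock genes (median -0.13), which respond to tissue digestion, Junb was higher (adjusted p = 0.0183) and Fos and Dusp1 were lower (adjusted p = 0.0492 and 0.033). The 2 animals differed in these genes: Fos stood at 19.7 and 173 and Junb at 39.5 and 373 in the pericyte-gated sums of hashtags 1 and 3. By DESeq2 none of these 3 genes passed, and without the 7 members with fibroblast transcripts Fos and Dusp1 did not (adjusted p = 0.312 and 0.234). Fos and Dusp1 also missed with the ratio caller (adjusted p = 0.999 and 0.426) and without hashtag 1 (adjusted p = 0.931 and 0.901). Without hashtag 3 the log2 fold change of Junb turned to -1.03 (adjusted p = 0.919). Ccl11 missed without hashtag 3 (adjusted p = 0.77), and Ifitm3 in all 3 fits (adjusted p = 0.931, 0.997 and 1). Of 9 transporters tested, the water channel Aqp1 was lower (0 and 13.3 against 106 and 95.9, adjusted p = 0.00697; 0.414, 0.145 and 0.571 in the 3 other fits), and 9 listed transporters that are known from brain pericytes or vessels, among them Slc6a13 and Atp13a5, had 0 UMIs.

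The named genes of the test were the 12 with the largest fitted change in each direction among those called, in the same direction in both hashtags and with at least 20 UMIs in the higher class. Olfr558 and Ccl11, given above, were 2 of the 12 higher genes. H2-M9, a nonclassical histocompatibility gene, stood at 59.2 and 280.1 against 0.643 and 0 CPM (adjusted p = 1.47e-15). Over all members, in and outside the test, it was found in 21 of 87. Inpp4b, a phosphatase of phosphoinositides, stood at 217 and 187 against 2.36 and 2.29 (adjusted p = 2.81e-11) and was found in 57 members. The endothelial protein C receptor, Procr, stood at 237 and 120.0 against 3.22 and 2.29 (log2 fold change 5.95, SE 0.88, adjusted p = 5.39e-09). Further higher genes were Pcdh19, a cell adhesion protocadherin (5.09), Itih5 (4.70), the matricellular Thbs1 (4.34), the activin inhibitor Fst (4.07), the septin Sept4 (3.74) and Btbd3 (3.71), in log2 fold change. Fst came from 137 UMIs in 25 members, so some members held many copies and most held none. Of the 24 genes named by this rule in both directions, 13 were called again without hashtag 1, 11 without hashtag 3 and 13 by DESeq2, and 9 in all 3 fits, among them Olfr558, Inpp4b, Itih5, Thbs1, Fst and Tes.

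Of the 12 named lower genes, 9 had 0 UMIs in the 18 tested members and are bounded by 3 UMIs over those members. Tes, an actin-associated focal adhesion protein, was at 147 CPM in the muscle-gated sums, at least 5.33-fold lower in the members, and over all 87 members it gave 12 UMIs (26.7 CPM against 132). Ccdc42 was at least 3.53-fold lower by the same bound, Ergic1 2.49-fold and Kif13a, a kinesin, 2.02-fold, and each gave 10 to 14 UMIs over all members. Dlgap1 and the integrin subunit Itgb3 gave 4 UMIs each over all members. Mrpl36, a mitochondrial ribosomal protein, and Smim7 were not sparse in the members outside the test: over all 87 they stood at 75.7 and 44.5 CPM against 53.7 and 56.7, so for Mrpl36 the pooled value lies above the muscle-gated one. Gxylt2, Sphkap and Igfbp2 had 1 UMI each in the tested members and 57.9, 24.5 and 40.1 CPM over all members against 187, 115 and 124.

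Transcripts of other cell types were counted in the members with lists for each type. The fibroblast list gave 4 of 16 genes higher (Lum, Clec3b, Dpt and Lamb1; median 0.94), and its summed level per member ran from 0 to 31383 CPM, with a median of 1554 against 2292 in muscle-gated barcodes. Some of these UMIs were concentrated in 7 members with more than 1 UMI of Pi16, Clec3b, Lum and Pdgfra. They held 62 of 69 Clec3b UMIs, 28 of 31 Lum UMIs and 149 of 236 Dcn UMIs. Dpt gave 47 UMIs in the 7 and 47 in the other 80, and Lamb1 gave 2 and 25. Without these 7, the tested members of hashtags 1 and 3 fell from 7 and 11 to 6 and 9. That fit called 106 genes higher and 215 lower, and Lum, Clec3b, Dpt and Lamb1 no longer passed (adjusted p = 0.131, 0.262, 0.688 and 0.0573). The log2 fold change of Lamb1 moved from 4.46 to 4.35. Because Lum and Clec3b were among the genes that chose the 7, their concentration and their loss follow from that choice. The muscle-gated class was not filtered in the same way. Rgs5, Pdgfrb, Aspn, Ebf1, Olfr558, Epas1, Fabp4 and Agtr1a still passed. The part of fibroblast RNA in the remaining results was not tested. Of 15 macrophage and other leukocyte genes, 8 had 0 UMIs in members, and the median summed level per member was 0. Of 10 cardiomyocyte genes 5, of 10 Schwann and neural genes 6, and of 8 mesothelial genes 4 were at 0 UMIs. Among these lists Ncam1, which aortic muscle also expresses, was lower (59.2 and 40 against 595 and 598, log2 fold change -3.63, SE 0.46, adjusted p = 2.94e-12).

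The 87 members were not uniform in muscle transcripts. Acta2, Tagln and Myh11 made up 0.181 to 3.98% of their gene UMIs, with a median of 1.55%, against a median of 0.392% in endothelial-gated and 2.42% in muscle-gated barcodes. At or above the 1.5% that defined muscle-gated barcodes lay 46 members (52.9%). Across the 87 members the muscle percentage and the Rgs5 share of UMIs had a Spearman correlation of -0.52, and with Pdgfrb it was -0.61, with Abcc9 -0.50, with Kcnj8 -0.47 and with Gucy1a1 0.06. All of these points share 1 pool of libraries and each share has the barcode's depth as denominator; depth itself correlated at -0.41 with the Rgs5 share and at 0.41 with the Mylk share. A median of 6173 UMIs was found in the 46 members and 3537 in the other 41.

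**Figure D4:**
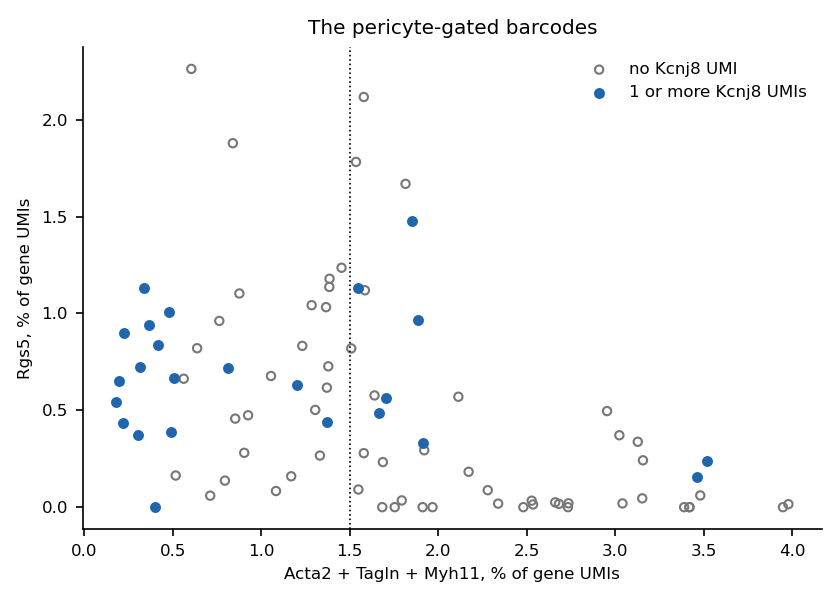
Each point is 1 of the 87 pericyte-gated barcodes: the percentage of gene UMIs from Acta2, Tagln and Myh11 (x axis) and from Rgs5 (y axis), filled where at least 1 Kcnj8 UMI was found; the dotted line marks 1.5%. The 24 barcodes with Kcnj8 gather at low muscle percentages (median 0.499%), and barcodes with almost no Rgs5 lie mostly to the right of 1.5%.

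Kcnj8 and Abcc9, which together form a KATP channel, were higher in the members low in muscle genes, while other channels and receptors went either way. Kcnj8 stood at 392 CPM in the 41 members under 1.5% and at 41.3 in the other 46 (9.49-fold, 95% counting interval 5.06 to 19.3). Abcc9 stood at 556 against 124 (4.49-fold, 95% counting interval 3.01 to 6.81), Agtr1a at 152 against 24.1 (6.29-fold, 95% counting interval 2.63 to 17.3), and Ednrb at 221 against 55 (4.02-fold, 95% counting interval 2.17 to 7.77). The channel subunit Kcnmb1 (25.3 against 82.6) and the receptor genes Npy1r (139 against 320.0) and Ramp1 (120.0 against 303) were lower in the 41 members, and Olfr558 (139 against 227) and Ednra (126 against 145) had counting intervals of the ratio that include 1. The pericyte genes Rgs5 (6891 against 3014), Pdgfrb (745 against 289) and, from the gate, Steap4 (619 against 127) were also higher in the members low in muscle genes. Matrix Gla protein, Mgp, an inhibitor of calcification, stood at 11521 against 3599, and the laminin genes Lama2 and Lamb1 at 101 and 133 against 24.1 and 20.6. Fibroblast and matrix genes differed the same way: Dcn stood at 922 against 309.6, Gsn at 1889 against 753, Fbn1 at 347 against 89.5 and Clec3b at 316 against 65.4, the last from 50 UMIs in 5 of the 41 members, and their part in the Mgp and laminin values was not tested. These intervals treat UMIs as independent and cover counting error alone, so the contrast is a description of these 87 barcodes.

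In the other direction, the 46 members with more muscle transcripts held more Cnn1 (629.6 against 126 CPM), Mylk (1954 against 884), Itga8 (509 against 94.7), Eln (719 against 171) and Pln (220.2 against 31.6). The immediate early genes Fos (526 against 44.2) and Junb (451 against 101) and the basement membrane gene Hspg2 (134 against 25.3) were higher there too. Gucy1a1 and Epas1 were at like levels on both sides (840.1 against 781, and 549.5 against 447).

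**Figure D5:**
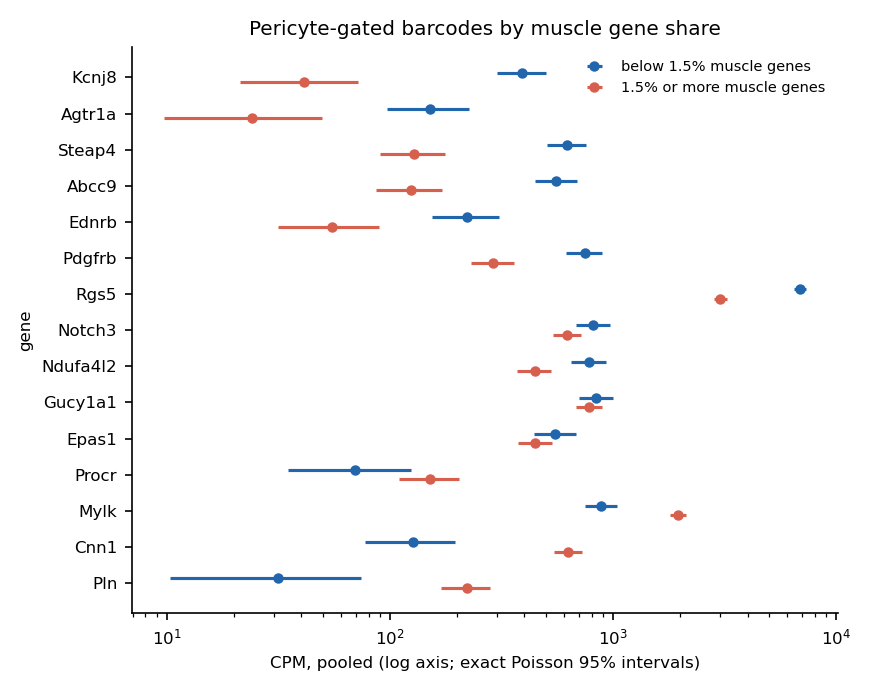
Pooled levels (CPM, log axis, exact Poisson 95% intervals) of 15 genes in the 41 pericyte-gated barcodes with under 1.5% of UMIs from Acta2, Tagln and Myh11 (blue) and in the 46 with 1.5% or more (red). Kcnj8 to Rgs5 are higher in the first set, with Kcnj8 at 392 against 41.3, and Procr to Pln in the second.

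Some members were nearly without Rgs5. Fewer than 2 Rgs5 UMIs were found in 17 members, 11 of them with 0, although their median depth was 6113 UMIs against 4408 in the other 70. Of these 17, 16 had at least 1.5% muscle UMIs, with a median of 2.68% against 1.37%. Notch3 was at a like level in both sets (641 and 704 CPM), as were Cox4i2 (305 and 222) and Epas1 (549 and 465). Vtn and H2-M9 gave 0 UMIs in the 17 and 77 and 61 in the 70, and Steap4 stood at 40.7 against 374. The 17 held more Pln (559 against 39.9), Mylk (3183 against 1127), Nrip2 (366 against 125) and Olfr558 (346 against 154).

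Several genes of these 17 members lay far from the level of the muscle-gated class. Nrip2 and Olfr558, at 366 and 346 CPM in the 17, stood at 0.769 and 1.09 in the muscle-gated class. Inpp4b stood at 244 against 1.43, and Eln at 214 against 1407. Tnnt2 gave 1 UMI there and stood at 157 in the muscle-gated class. The set was chosen on Rgs5 after its values were seen, so these values are a description and carry no test.

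Rgs5 was also found in aortic muscle, and members were set against 3393 muscle-gated barcodes with at least 3 UMIs of Rgs5, Prrx2 and Sfrp2 and at least 2 of these genes. That comparison, added after the data were seen, called 176 genes higher (2.58% of 6823) and 196 lower (2.87%); Rgs5 was left out because it chose the subset. Pdgfrb, Ebf1, Aspn, Epas1, Olfr558 and Nrip2 were higher against this subset (log2 fold changes 2.28, 2.01, 2.40, 2.63, 9.86 and 8.04), and Cnn1, Itga8 and Eln lower (-2.09, -2.67 and -2.34). Gucy1a1 passed here (log2 fold change 0.85, adjusted p = 0.0191) and not against all muscle-gated barcodes. The pooled Rgs5 level was 4381 CPM in members and 1183 in the subset.

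Members were found in all 3 hashtags. They made up 0.501% (exact 95% interval 0.202 to 1.03%) of the single-hashtag barcodes of hashtag 1, 0.276% (0.0571 to 0.806%) of hashtag 2 and 0.712% (0.356 to 1.27%) of hashtag 3. The intervals overlap, and with the ratio caller the shares were 0.394, 0.518 and 0.735%. In dissociated tissue a share of barcodes depends on how many cells of each type were released, and fewer cells and less RNA per cell cannot be told apart where few UMIs decide membership.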

How the data were processed

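The deposited files hold raw UMI counts per gene and hashtag, and per the file headers the software was cellranger version 6.0.1. The submitters' processing notes name the mm10 build as well as Seurat 4.0.5, without the gene annotation. Whether the authors removed doublets or free RNA is not stated, and neither was removed here. The members, gene lists and tests were chosen with earlier results of these data known. Gates were applied to the counts in Python 3.11.15. Hashtags were assigned by HTODemux (Seurat 5.3.0, R 4.3.3, centred log ratios per hashtag, positive quantile 0.99). Counts were summed per hashtag and class for hashtags with at least 10 barcodes in each class, or at least 5 where any hashtag fell short of 10. The sums were tested with edgeR 4.0.16 (glmQLFit and glmQLFTest, TMM, filterByExpr, hashtag as a block, since both classes come from the same animals), with Benjamini-Hochberg adjustment. The SE of a log2 fold change was derived from the F statistic of that test. Gate, mitochondrial and haemoglobin genes were left out of the tests. Genes are named from the gene lists and by the rule stated in the text; 1 gene that the rule names is not reported here. DESeq2 1.42.0 and other callers, gates and filters served as alternatives. The scripts were tested on simulated data. Thinned shares draw 1000 UMIs from each barcode, and 2000 of the muscle-gated barcodes were drawn for them. The list of pericyte genes is partly one that earlier results chose, so its direction is not independent evidence.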

Additional observations from a re-analysis of the deposited data

How the results depend on the processing

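The higher count was 128 and the lower count 238. Leaving out hashtag 1 gave 55 higher and 34 lower genes, and leaving out hashtag 3 gave 29 and 77, where both fits rest on a hashtag with 3 members. Leaving out hashtag 2 gave the main fit again, since that fit did not use it. No replicate block gave 247 higher and 460 lower genes, the ratio caller 216 higher and DESeq2 10 lower; the causes were not tested. The stricter cell filter and the stricter pericyte gate left fewer than 2 hashtags with enough members, so their gene tests were not run. Of 102 named or listed genes called, 24 were called under every one of 13 alternatives that gave them an adjusted p, among them Rgs5, Olfr558, Nrip2, Agtr1a, Epas1, Cxcl12, Itga8 and Sost. The 13 include the fit without hashtag 2, which repeats the main fit and so had to give the same calls. The direction turned for Lum (-10.22) and Clec3b (-2.84) without the 7 members with fibroblast transcripts, and for Mrpl36 with the ratio caller (0.043). Lum and Clec3b were among the genes that chose those 7, so their change of direction follows from the choice. Over the main fit and the fits without hashtag 1 or 3, Abcc9 ran from -0.28 to 0.34, Rgs4 from -0.34 to 0.72, Ifitm3 from -0.031 to 1.07 and Junb from -1.03 to 1.58, all as log2 fold changes. TMMwsp scaling, a minimum of 3 barcodes, a pericyte gate without other lineages and the Rgs5, Prrx2 and Sfrp2 muscle subset were added after seeing the data. Depth limits the tested members: 1729 of 10433 tested genes had 0 UMIs there.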

Other observations

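Barcodes that met the 5-gene condition without a Notch3 UMI had a different pooled profile. Whether they mix several cell types was not tested. There were 71 of them, with a median of 4880 UMIs, and 0.173% of their UMIs (median) came from Acta2, Tagln and Myh11. Their pooled levels of the fibroblast genes Dcn, Lum, Clec3b and Pdgfra were 12702, 2512, 922 and 447 CPM. Rgs5 stood at 438, Nrip2 at 5.69 and Olfr558 at 14.2. Abcc9 stood at 541, above the 276 of the pericyte-gated barcodes, and Steap4 and Ndufa4l2, 2 genes of the gate, at 373 and 310.1. Notch3 was at 0 in these barcodes by choice.

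The 7 barcodes that failed on Pecam1 and Cdh5 alone held Rgs5 at 2881 CPM, Fabp4 at 7706 and 5 UMIs of Kdr. Another 1152 barcodes held Notch3 and 0 UMIs of the 5 genes; their Rgs5 level was 226 and their Cnn1 level 1356 CPM, against 365 and 1331 in the muscle-gated class.

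Transcripts below the test's filter were also present in members. Ifitm1, an interferon-induced gene, gave 50 UMIs in 18 members (111 CPM against 0.897 in muscle-gated and 2.09 in endothelial-gated barcodes). Il34, a ligand of the macrophage growth factor receptor, gave 22 UMIs in 20 members (49 against 0.192 and 0.418). The potassium channel gene Kcna5 gave 17 UMIs in 11 members (37.9 against 1.22 and 25.5).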
